A study of Homo sapiens with 15 samples.

Results

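Levels of 10 genes of the collagenous matrix were followed in PSN-1, a human tumour cell line of pancreatic ductal adenocarcinoma: COL1A1, COL1A2, COL3A1, COL5A1, COL5A2, COL6A1, COL6A2, FN1, SPARC and DCN. They are 10 of the 26485 gene symbols in the tables, selected by name. COL1A1, COL1A2 and DCN were chosen by their measured fold changes in these same libraries, so their values are a description and carry no test. In the first experiment, cells were transfected with an siRNA to MLXIP, the gene of the transcription factor MondoA (siMondoA), with an siRNA to MLX, its DNA-binding partner (siMLX), or with a control siRNA (siControl). In the second, cells received SBI477, which the labels call a MondoA inhibitor and spell SBI-477, or the vehicle DMSO. All 15 libraries, 3 per group, were made after 72 hours from PSN-1 with no other alteration named, and neither the siRNA sequences nor the drug dose is given in the sources used here. The labels do not tell whether replicates were grown apart, and p-values here reflect the scatter of these libraries, which may be technical.

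Fibrillar collagens are rope-like triple helices of the interstitial matrix, and in a tumour of the pancreas most of that matrix is laid down by fibroblasts and stellate cells. Type I collagen is normally a mixed helix of α1(I) chains from COL1A1 and an α2(I) chain from COL1A2, type III is built from COL3A1 alone, and type V, whose chains come from COL5A1 and COL5A2, helps to start fibrils. Type VI forms beaded filaments from COL6A1, COL6A2 and a chain such as that of COL6A3. FN1 encodes fibronectin, the adhesive glycoprotein on which collagen assembles, SPARC encodes a secreted collagen-binding glycoprotein, and DCN encodes decorin, a small proteoglycan that coats collagen fibrils.

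The siRNA libraries held between 11227343 and 14731691 counts and the drug libraries between 23315440 and 30480362. A count of 3 then corresponds to at most 0.267 CPM (counts scaled to a library size of 1e+06) in the siRNA libraries and at most 0.129 CPM in the drug libraries, limits that cover counting error only. MLXIP lay between 15.7 and 23.4 CPM in siMondoA, against 65.8 to 88.6 CPM in siControl, and MLX between 7.15 and 11.9 CPM in siMLX, against 53.0 to 58.8 CPM in siControl. In the drug experiment the replicates numbered 2 stood apart from the others of their groups. The fold changes in the authors' deposited table for SBI477 were matched with a median absolute difference of 9.34e-08 on the log2 scale when the libraries labelled SBI477 replicate 2 and DMSO replicate 2 were exchanged, and of 0.196 with the labels as given. Libraries are called by their labels throughout, and fold changes of the drug are given for all 6 libraries as labelled and for replicates 1 and 3 alone.

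PSN-1 carried several keratins of an epithelial line together with several genes that are usually read as mesenchymal. KRT8 lay between 531 and 1230 CPM and KRT18 between 369 and 937 CPM over the 15 libraries, and the adhesion gene EPCAM between 17.2 and 42.0 CPM. KRT7 lay between 244 and 533 CPM, KRT19 between 78.6 and 254 CPM and CLDN4 between 17.7 and 108 CPM. Other epithelial markers were low in some or all libraries. CDH1 lay between 1.06 and 39.8 CPM, MUC1 between 1.50 and 8.64 CPM, and KRT17 reached 2.31 CPM at most. ESRP1, an epithelial splicing regulator, had at most 3 counts in a library. Among 15 markers of fibroblasts and stellate cells, PDPN had no count in any of the 15 libraries, THY1 had none in 12 and at most 1 count in the others, and ACTA2 and DES had at most 12 and 13 counts. PDGFRA reached 80.4 CPM and LUM 230 CPM, so the fibroblast marker list was present in part while THY1, PDPN, ACTA2 and DES were at or near 0. Summed over the list, these markers held 669 to 722 CPM in siMondoA, 548 to 780 CPM in siMLX and 802 to 1220 CPM in siControl, and 505 to 643 CPM in SBI477 against 437 to 607 CPM in DMSO. S100A4, which many cell types express, was by mean the largest term of that sum in each of the 5 groups, at 222 to 863 CPM over the libraries, and NT5E held 70.4 to 324 CPM. The epithelial markers summed to 1680 to 2040 CPM in siMondoA, 1970 to 2510 CPM in siMLX and 1960 to 2910 CPM in siControl. In the drug experiment they summed to 1490 to 2520 CPM in SBI477 and 1590 to 2220 CPM in DMSO. In bulk libraries, fewer cells of a type and less RNA per cell cannot be told apart.

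Promoter sequence is shown for genes that stood at different levels in these cells. RefSeq windows of 250 bases before the gene start (GRCh38.p14) were at hand for COL5A1, COL6A2, FN1 and SPARC. The bases of those windows that lie upstream of the GENCODE v29 gene start are printed for 3 of them, namely a gene near the detection limit (COL5A1), a low gene (COL6A2) and one of the highest (FN1). The COL5A1 stretch is chr9:134641553-134641773 on the plus strand, the COL6A2 stretch is chr21:46097862-46098096 on the plus strand and the FN1 stretch is chr2:215436173-215436318 on the minus strand. Capitals mark matches on either strand. They are GC boxes, the letters GGGCGG, the pentamer CCAAT of the box with that name, and the hexamer TATAAA of core promoters.
COL5A1: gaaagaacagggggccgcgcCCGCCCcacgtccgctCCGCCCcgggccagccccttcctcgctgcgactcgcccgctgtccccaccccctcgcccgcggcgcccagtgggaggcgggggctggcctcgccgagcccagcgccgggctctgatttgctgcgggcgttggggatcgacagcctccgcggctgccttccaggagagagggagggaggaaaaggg
COL6A2: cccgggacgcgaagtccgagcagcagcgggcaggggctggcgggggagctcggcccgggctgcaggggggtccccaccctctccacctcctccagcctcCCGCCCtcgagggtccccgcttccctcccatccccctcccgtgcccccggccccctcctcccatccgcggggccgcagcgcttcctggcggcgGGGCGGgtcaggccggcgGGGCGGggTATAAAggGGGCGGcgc
FN1: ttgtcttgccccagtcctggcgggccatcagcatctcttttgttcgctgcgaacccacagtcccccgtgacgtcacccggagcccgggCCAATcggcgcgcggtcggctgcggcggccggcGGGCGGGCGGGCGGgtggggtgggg

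Over the full windows of 250 bases, GC boxes occurred in COL5A1, COL6A2 and FN1, 3 of the 4 genes, and in 42.3% of 27305 human promoter windows of the same length. CCAAT was in 1 of the 4, FN1, and in 33.0% of all windows. TATAAA was in 1 of the 4, COL6A2, and in 11.1% of all windows. GC content was 74.0% in COL5A1, 79.6% in COL6A2 and 76.4% in FN1, against a median of 58.0% over all windows. The SPARC window, chr5:151686916-151687165 on the minus strand, had 59.2% GC and none of the motifs searched. All 250 bases of that window lie inside SPARC as placed by GENCODE v29, so it holds no sequence upstream of that start. In the windows of COL5A1, COL6A2 and FN1, 29, 15 and 104 bases lie inside the gene. The E-box CACGTG, the core of sites bound by factors of the MYC and MondoA network, was in none of the 4 windows and in 6.49% of all windows. The ATF4 composite element TGATGCAA was likewise in none of the 4 and in 0.82% of all windows. These searches describe letters in a short window and say nothing of binding elsewhere.

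Among the 10 genes, COL6A1, FN1 and COL3A1 stood highest per length in siControl. Scaled by exon length, COL6A1 averaged 184 ± 11.1 CPM per kb, FN1 143 ± 13.8, COL3A1 54.0 ± 5.22 and SPARC 14.7 ± 2.78 CPM per kb in siControl (SD, n = 3). COL1A1 followed at 3.21 ± 0.834 and COL1A2 at 1.57 ± 0.402 CPM per kb, then COL5A2 at 0.443 ± 0.0507 and COL6A2 at 0.333 ± 0.112 CPM per kb. The ranges of COL5A2 and COL6A2 overlapped, so their order is not resolved. DCN, at 0.138 ± 0.0904 CPM per kb, and COL5A1, at 0.0332 ± 0.0151 CPM per kb, were the lowest. With the longest transcript as length, FN1 stood at 270 CPM per kb and COL6A1 at 232 CPM per kb, so the order of these leading genes depends on the length used.

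Among the collagen chains with at least 30 counts in siControl, COL6A1 was the highest by exon length and COL3A1 came next. Other chains in the upper part were COL4A5, a basement membrane chain, at 42.3 CPM per kb, COL14A1 and COL12A1, which sit on fibril surfaces, at 37.7 and 27.4 CPM per kb, COL7A1, the anchoring fibril collagen, at 22.3 CPM per kb and COL18A1 at 14.4 CPM per kb. All 5 lay above COL1A1 and COL1A2, which are the leading fibrillar chains of fibroblast matrix. With the longest transcript as length, COL4A5 stood at 77.3 CPM per kb in siControl, above COL3A1 at 66.4 CPM per kb. In DMSO, by mean and exon length, COL6A1 stood at 140 CPM per kb. There COL7A1 (42.5 CPM per kb) and COL12A1 (23.5) were above COL3A1 (15.3). The order below COL6A1 thus differs with the length used and between the control groups. Partner chains were unequal. COL6A1 exceeded COL6A2 per length by 426-fold, 680-fold and 645-fold in siControl replicates 1, 2 and 3, although the genes lie on the same strand of chromosome 21, 93.0 kb apart. The third type VI chain, COL6A3, averaged 0.956 CPM per kb in siControl.

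**Figure D1:**
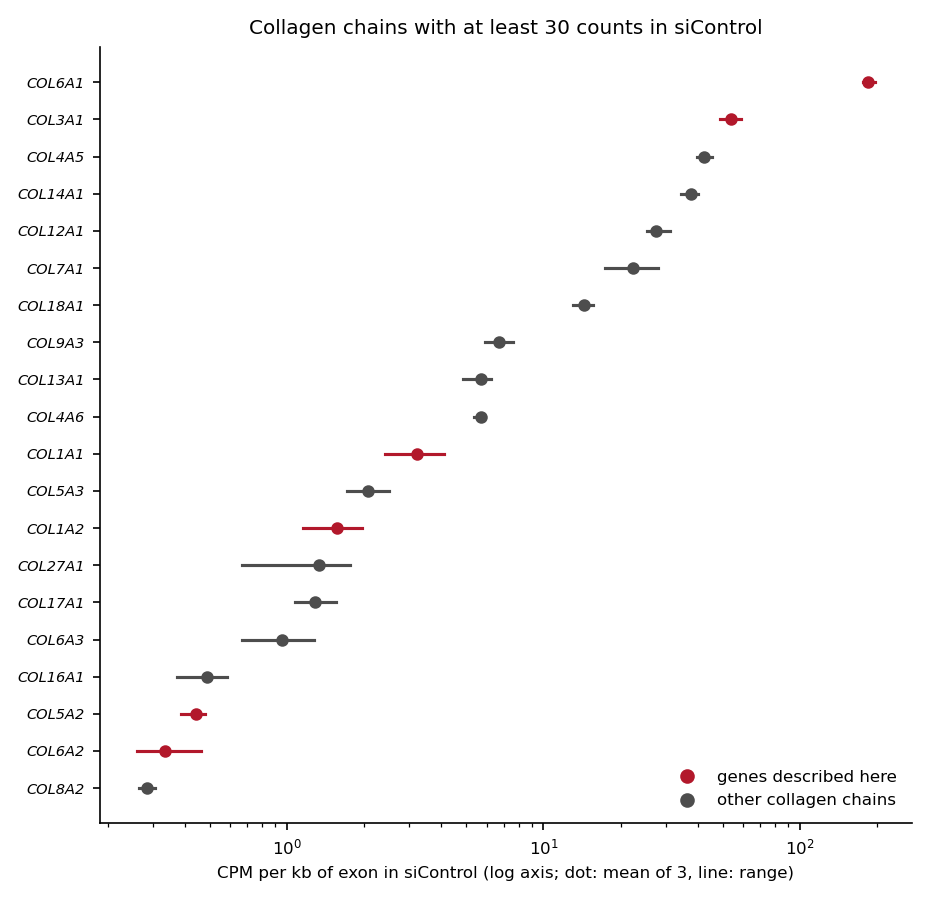
Collagen chains of PSN-1 in siControl, as CPM per kb of exon on a log axis, with the mean of 3 libraries as a dot and their range as a line. With this length and in this group, COL6A1 (184 CPM per kb) and COL3A1 (54.0 CPM per kb) lead, and COL1A1 and COL1A2 stand at 3.21 and 1.57 CPM per kb.

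The type I chains parted from each other after either knockdown. COL1A2 (chr7:94394561-94431232), which encodes the α2(I) chain, read 1.95, 0.159 and 1.36 CPM in siMondoA replicates 1, 2 and 3, 4.06, 1.38 and 4.34 CPM in siMLX, and 12.9, 17.7 and 21.8 CPM in siControl. Every knockdown library was below every siControl library, and the lowest, siMondoA replicate 2, rested on 2 counts. The edgeR log2 fold change was -3.91 ± 0.56 (SE) in siMondoA and -2.43 ± 0.50 in siMLX, each against siControl, which both comparisons share. In siMondoA the COL1A2 value was -4.51 without siMondoA replicate 1 and -3.40 without siMondoA replicate 2, and in siMLX it ranged from -2.70 to -2.06 without single libraries.

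COL1A1 (chr17:50183289-50201632), which encodes the α1(I) chain, did not follow. It read 43.8, 29.8 and 29.1 CPM in siMondoA, 72.5, 63.4 and 45.2 CPM in siMLX and 40.0, 23.7 and 31.0 CPM in siControl. The siMondoA and siControl libraries overlapped, with a log2 fold change of 0.12 ± 0.24, while every siMLX library was above every siControl library, at 0.94 ± 0.24. Without siMondoA replicate 1 the first value was -0.10, and without siControl replicate 1 it was 0.32.

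The ratio of COL1A1 to COL1A2 per length shows the parting library by library. It was 25.5, 213 and 24.3 in siMondoA and 20.3, 52.1 and 11.8 in siMLX, against 3.53, 1.52 and 1.61 in siControl. The value of 213 in siMondoA replicate 2 has an exact 95% interval of 58.6 to 1770, counting error only. As a description of genes chosen for their changes, each of the 6 knockdown libraries had a higher ratio than each siControl library. In the drug experiment the ratio was 3.41, 5.41 and 15.2 in SBI477 and 3.82, 7.95 and 4.76 in DMSO, so these groups overlapped.

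**Figure D2:**
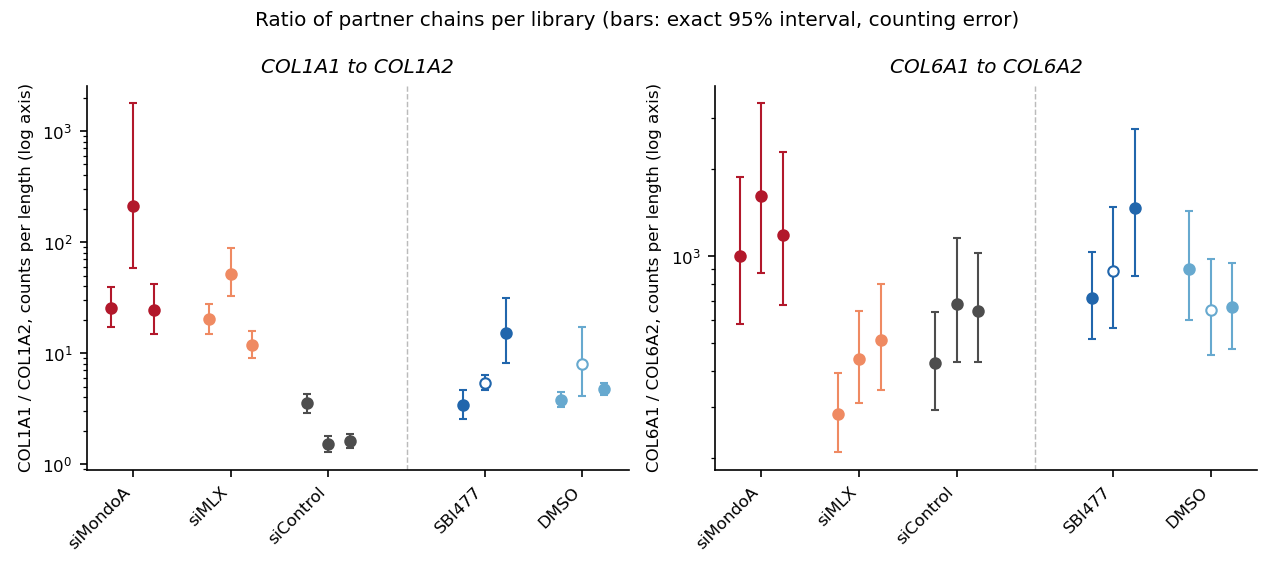
Counts per length of COL1A1 over COL1A2 (left) and of COL6A1 over COL6A2 (right) in each library, on log axes, with exact 95% intervals for counting error and open symbols for replicate 2 of the drug experiment. The 6 knockdown libraries had COL1A1 to COL1A2 ratios of 11.8 to 213, above 1.52 to 3.53 in siControl.

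COL3A1 (chr2:188974320-189012746), the single chain of type III collagen, was modestly higher after siMondoA. It read 514, 434 and 661 CPM in siMondoA, 442, 447 and 386 CPM in siMLX and 403, 369 and 332 CPM in siControl. All siMondoA libraries lay above all siControl libraries, and siMLX overlapped both. The log2 fold change in siMondoA was 0.54 ± 0.15, with an adjusted p of 0.0263 by edgeR's quasi-likelihood test with Benjamini-Hochberg adjustment over the 13001 genes tested. That call did not hold without siMondoA replicate 3 (adjusted p = 0.0963), siControl replicate 2 (0.0803) or siControl replicate 3 (0.0880) in the same edgeR test. In siMLX the log2 fold change of COL3A1 was 0.21 ± 0.15 (edgeR adjusted p = 0.431).

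COL5A2 (chr2:189031896-189225312), an α2(V) chain gene that lies 19.1 kb from COL3A1 on the opposite strand, did not pass the test in either knockdown. Its levels were 1.56, 2.70 and 3.12 CPM in siMondoA, 4.60, 4.92 and 3.58 CPM in siMLX and 3.55, 3.49 and 2.87 CPM in siControl. siMLX libraries were all above siControl by a narrow margin and siMondoA overlapped siControl. The log2 fold changes were -0.42 ± 0.28 in siMondoA (edgeR adjusted p = 0.281) and 0.40 ± 0.27 in siMLX (0.375). Its partner COL5A1 was too low to test, with 1, 1 and 0 counts in siMondoA, 2, 0 and 2 in siMLX and 6, 5 and 3 in siControl.

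The type VI chains were among the highest and the lowest members. COL6A1 (chr21:45981737-46005050) averaged 1130 ± 132 CPM in siMondoA, 1000 ± 67.1 CPM in siMLX and 984 ± 59.3 CPM in siControl (SD, n = 3 each), with overlapping libraries. Its log2 fold changes of 0.20 ± 0.11 and 0.03 ± 0.11 in siMondoA and siMLX had edgeR adjusted p-values of 0.202 and 0.894. COL6A2 (chr21:46098097-46132849) read 1.02, 0.794 and 0.960 CPM in siMondoA, 3.71, 2.38 and 1.83 CPM in siMLX and 2.49, 1.39 and 1.50 CPM in siControl. All siMondoA libraries of COL6A2 were lower than all of the other siRNA groups, on 10 to 13 counts each. Its log2 fold change was -0.93 ± 0.37 in siMondoA (edgeR adjusted p = 0.0853) and 0.56 ± 0.34 in siMLX (0.324), neither past the threshold of 0.05. The ratio of COL6A1 to COL6A2 per length was 997, 1610 and 1180 in siMondoA and 285, 440 and 512 in siMLX, beside the siControl values above, and only the siMondoA libraries lay apart from siControl.

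SPARC (chr5:151661096-151687165) fell after siMondoA. It read 26.5, 19.7 and 25.9 CPM in siMondoA, 98.4, 121 and 86.3 CPM in siMLX and 85.1, 68.9 and 58.5 CPM in siControl. The siMondoA libraries were all below 27 CPM and the siMLX libraries all above siControl, with no overlap among the 3 groups. The log2 fold change in siMondoA was -1.56 ± 0.18, a 2.94-fold lower level with an edgeR adjusted p of 0.000594, and it passed in each of 6 fits that left out 1 library. In siMLX the value was 0.52 ± 0.18 (edgeR adjusted p = 0.0910), on the other side of siControl and not past the threshold. An annotated antisense transcript, CLMAT3, shares 381 exonic bases with SPARC and has no entry of its own in the tables. Strand use in counting is not stated in those sources, so its part in these values was not tested.

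FN1 (chr2:215360440-215436172), the fibronectin gene, had overlapping levels in siMondoA and siControl. It read 1850, 2430 and 2320 CPM in siMondoA, 1920, 2120 and 1740 CPM in siMLX and 2630, 2600 and 2200 CPM in siControl. The siMLX libraries were all slightly below siControl. Log2 fold changes were -0.17 ± 0.13 in siMondoA (edgeR adjusted p = 0.353) and -0.36 ± 0.13 in siMLX (0.115).

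DCN (chr12:91140484-91183123) stood out in siMLX. It read 2.58, 1.59 and 2.16 CPM in siMondoA, 14.2, 11.5 and 10.5 CPM in siMLX and 3.11, 1.24 and 0.977 CPM in siControl. The siMLX libraries held 138 to 161 counts of DCN and lay far above the other groups, while siMondoA and siControl overlapped. The log2 fold change was 0.29 ± 0.40 in siMondoA and 2.80 ± 0.37 in siMLX. Without siControl replicate 1, the highest of its group, the values were 0.93 in siMondoA and 3.44 in siMLX, and without siControl replicate 3 they were -0.02 and 2.49.

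**Figure D3:**
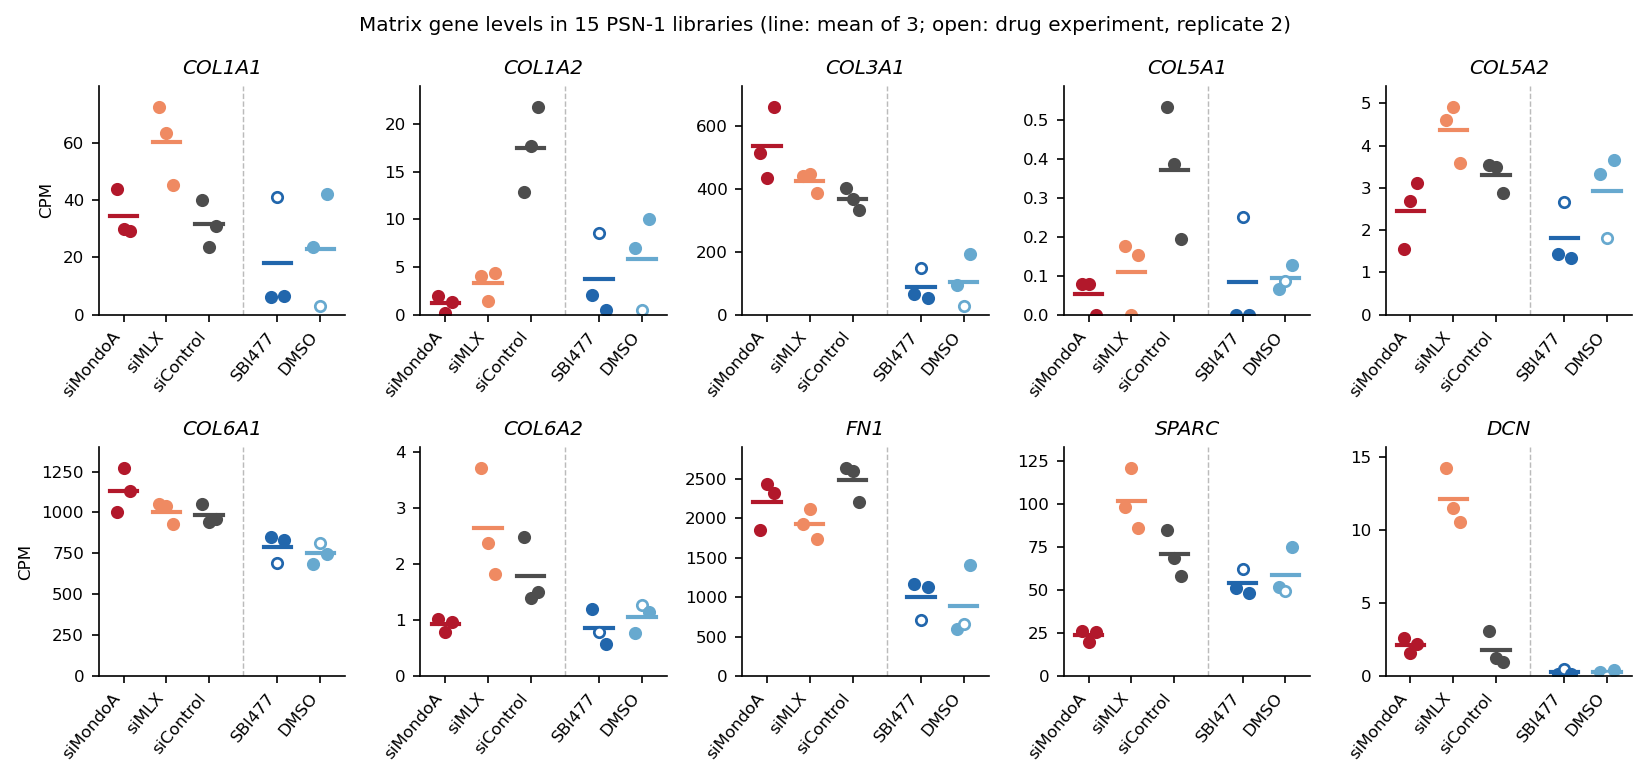
CPM of the 10 matrix genes in each of the 15 libraries, with a line at the mean of 3 and open symbols for replicate 2 of the drug experiment. COL1A2 is low in both knockdowns, SPARC is low in siMondoA (19.7 to 26.5 CPM) and high in siMLX (86.3 to 121 CPM), and DCN is high in siMLX (10.5 to 14.2 CPM).

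Counted over the 6 genes that were tested and not picked for their changes, 2 were called in siMondoA against siControl, COL3A1 higher and SPARC lower, where 27.2% of all 13001 genes tested were called, 14.2% higher and 12.9% lower. Their median log2 fold change was -0.30, against 0 over all genes. None of the 6 was called in siMLX against siControl, where the background was 8.41%, with a median of 0.31 against 0.02 over all genes. At an unadjusted edgeR p under 0.05, 2 of the 6 passed in siMLX, SPARC and FN1, beside 3374 of the 13001 genes. DESeq2 called none of the 6 and 1651 genes in all. Same-numbered siMLX and siControl libraries deviated together, and with the replicate number as a block edgeR called 1815 genes (14.0%), none of the 6 among them, with SPARC at an adjusted p of 0.0568 and FN1 at 0.0737. In the authors' deposited table SPARC (0.53) and FN1 (-0.36) do pass in siMLX, with adjusted p-values of 0.0156 and 0.0334. The others of the 6 do not. The log2 fold changes of that table were matched by DESeq2 with a replicate term. Groups whose libraries did not overlap, as for COL3A1 and SPARC in siMondoA, were seen for 47.2% of all genes tested in siMondoA and 33.4% in siMLX.

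The knockdowns were also set against each other without siControl. SPARC was 4.23-fold lower in siMondoA than in siMLX, at a log2 fold change of -2.08 ± 0.18 (edgeR adjusted p = 0.000330), and COL6A2 was 2.82-fold lower, at -1.50 ± 0.36 (0.0236). These were 2 of the 6, where 12.9% of all genes were called and 6.21% were called lower. Libraries that did not overlap, as for both genes, were seen for 30.2% of all genes in this comparison. The SPARC call held in each of 6 fits without 1 library. The COL6A2 call did not hold without siMondoA replicate 2 (edgeR adjusted p = 0.0731), siMondoA replicate 3 (0.0730) or siMLX replicate 1 (0.0960). The other 4 did not pass, with COL5A2 the nearest at -0.82 ± 0.28 (edgeR adjusted p = 0.0728). As a description, COL1A1 differed by -0.82 ± 0.24, COL1A2 by -1.48 ± 0.60 and DCN by -2.51 ± 0.36 between siMondoA and siMLX, and only the COL1A2 libraries overlapped among these 3 genes. The COL1A2 difference was -2.08 without siMondoA replicate 1 and -0.97 without siMondoA replicate 2.

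**Figure D4:**
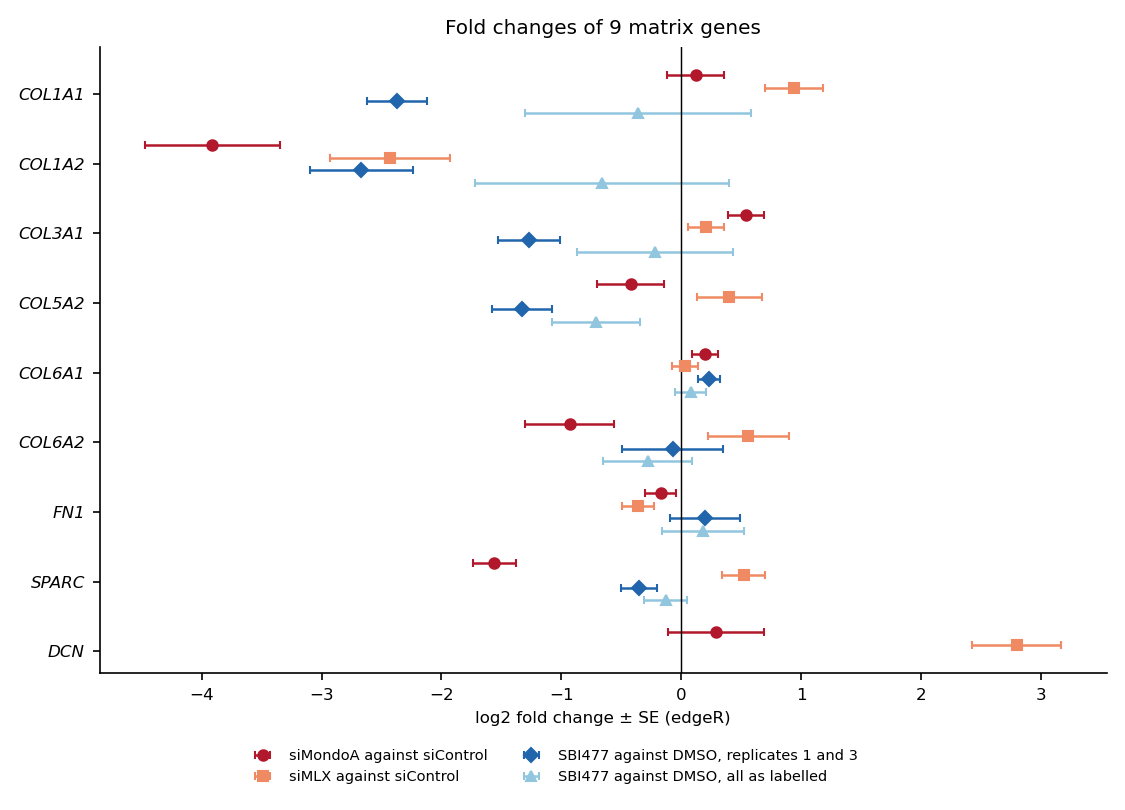
Log2 fold changes with SE for 9 matrix genes, from edgeR, in siMondoA and siMLX against siControl and in SBI477 against DMSO with replicates 1 and 3 or with all libraries as labelled. COL1A2 is lower in both knockdowns, SPARC is lower in siMondoA (-1.56), and COL1A1 is near 0 in siMondoA (0.12) and at -2.37 in SBI477 with replicates 1 and 3. DCN was too low to be fitted in the drug libraries, and COL5A1 in any.

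In the drug experiment the fibrillar collagens varied more between libraries of a group than between groups as labelled. COL1A1 read 6.15, 41.0 and 6.50 CPM in SBI477 replicates 1, 2 and 3 and 23.5, 3.04 and 41.9 CPM in DMSO. COL1A2 read 2.05, 8.60 and 0.487 CPM in SBI477 and 6.98, 0.434 and 10.0 CPM in DMSO, and COL3A1 read 65.0, 149 and 53.3 CPM in SBI477 and 93.4, 26.2 and 192 CPM in DMSO. For each of these 3 genes the library labelled SBI477 replicate 2 was the highest of its group and the library labelled DMSO replicate 2 the lowest of all DMSO libraries. DCN followed the same order on 0 to 14 counts per library. TXNIP, a textbook target of MondoA, did too, at 74.6, 121 and 41.5 CPM in SBI477 and 145, 39.2 and 204 CPM in DMSO.

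With all 6 libraries as labelled, none of the 6 tested genes was called, and none of all 14023 genes was (background 0%), by edgeR or by DESeq2. Libraries of all 6 overlapped between the groups, and 9.26% of all genes had groups that did not. An unadjusted edgeR p under 0.05 was reached by 409 genes, none of them among the 6. As labelled, the log2 fold changes were -0.22 ± 0.65 for COL3A1, -0.71 ± 0.37 for COL5A2, 0.08 ± 0.13 for COL6A1, -0.28 ± 0.37 for COL6A2, -0.13 ± 0.18 for SPARC and 0.18 ± 0.34 for FN1. As a description, COL1A1 was at -0.36 ± 0.94 and COL1A2 at -0.66 ± 1.06 over the 6 libraries. With replicates 1 and 3 alone, 18.1% of 14232 genes were called, 9.02% as lower, and of the 6 genes COL3A1 was lower, at -1.27 ± 0.26 (edgeR adjusted p = 0.0124), and COL5A2 was lower, at -1.33 ± 0.25 (0.00884). That fit holds 2 libraries per group, and the libraries left out are those that stood apart in these same data. Its p-values do not allow for that choice. COL6A1 (0.23 ± 0.09), SPARC (-0.35 ± 0.15), COL6A2 (-0.07 ± 0.42) and FN1 (0.20 ± 0.29) did not pass, with edgeR adjusted p-values of 0.0937, 0.134, 0.932 and 0.659. As a description, COL1A1 was at -2.37 ± 0.25 and COL1A2 at -2.67 ± 0.43 with these 4 libraries.

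The authors' deposited table gives log2 fold changes for SBI477 of -2.75 for COL1A1, -3.08 for COL1A2, -1.58 for COL3A1 and -1.07 for COL5A2. The same authors' deposited table gives 0.24 for COL6A1, -0.33 for SPARC and 0.14 for FN1. The signs of these 7 are those found with replicates 1 and 3, while COL6A2 is at 0.19 in the authors' deposited table and at -0.07 ± 0.42 with replicates 1 and 3. These are not separate sources. The deposited values were matched from these same drug libraries with the replicates numbered 2 exchanged, so both share replicates 1 and 3. Adjusted p-values in the authors' deposited table are 0.00735 for COL3A1, 0.00276 for COL5A2 and 0.0318 for COL6A1. Of these genes COL6A1 did not pass with replicates 1 and 3. For SPARC, FN1 and COL6A2 the deposited adjusted p-values are 0.0751, 0.851 and 0.809. COL5A2 itself read 1.44, 2.66 and 1.33 CPM in SBI477 and 3.32, 1.82 and 3.66 CPM in DMSO, so that its libraries overlapped only through replicate 2.

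FN1 read 1160, 714 and 1130 CPM in SBI477 and 589, 655 and 1410 CPM in DMSO, COL6A1 read 851, 692 and 832 CPM in SBI477 and 686, 814 and 748 CPM in DMSO, and COL6A2 read 1.20, 0.790 and 0.575 CPM in SBI477 and 0.764, 1.26 and 1.14 CPM in DMSO. All 3 overlapped between the groups, COL6A1 only through replicate 2. COL5A1 had 0, 6 and 0 counts in SBI477 and 2, 2 and 4 in DMSO.

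**Figure D5:**
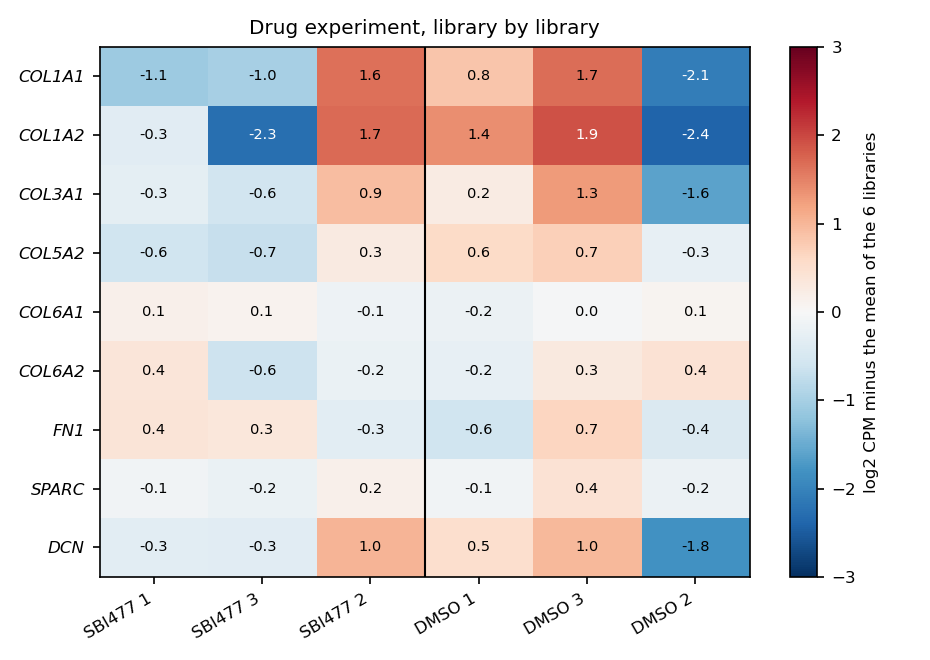
Log2 CPM of 9 matrix genes in each drug library, minus the mean of the 6 libraries, with the libraries of SBI477 to the left of those of DMSO and replicate 2 last in each group. For COL1A1, COL1A2, COL3A1 and DCN the column of SBI477 replicate 2 is red like DMSO replicates 1 and 3, and the column of DMSO replicate 2 is blue.

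Whether SBI477 and siMondoA acted differently on a gene was tested as an interaction over all 15 libraries. Drug and knockdown came from separate experiments, each with its own control, so agent and experiment cannot be told apart here. Mean COL3A1 was 368 CPM in siControl and 104 CPM in DMSO. SPARC was called, with a difference of 1.45 ± 0.27 (SBI477 effect minus siMondoA effect, edgeR adjusted p = 0.00696), the only one of the 6, where 7.67% of 13681 genes were called and 3.84% with a positive difference. SPARC read 51.5, 62.1 and 48.3 CPM in SBI477 and 51.8, 49.5 and 75.2 CPM in DMSO, which overlapped through replicate 2. With drug replicates 1 and 3 the SPARC difference was 1.23 ± 0.28 (edgeR adjusted p = 0.0205). COL3A1 differed by -0.74 ± 0.68 with all libraries (edgeR adjusted p = 0.531) and by -1.79 ± 0.35 with drug replicates 1 and 3 (0.0101), lower with the drug and higher with the knockdown. The fit with drug replicates 1 and 3 called 1595 genes in all, against 1049 with all libraries. Its share over all genes by direction is not given here. As a description from the same pair of fits, COL1A1 differed by -0.46 ± 1.00 and by -2.46 ± 0.41, and COL1A2, which is low after the knockdown, by 3.27 ± 1.32 and by 1.25 ± 0.88.

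Across libraries the members did not vary as 1 block. As a description over the 9 siRNA libraries, Pearson's r of log2 CPM between COL1A1 and COL1A2 was -0.15, and over the 6 drug libraries it was 0.94. For COL3A1 with COL1A1 it was 0.08 over 9 and 0.96 over 6 libraries, and for DCN with COL1A1 it was 0.90 and 0.96. The last value rests on 0 to 14 counts of DCN in a drug library. SPARC and COL6A2 followed each other over the siRNA libraries at 0.90 and over the drug libraries at 0.25. These libraries share their experiment, their groups and their depth, and no p is attached.

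Among 10861 genes averaging 4 CPM or more, the likest to SPARC over the 9 siRNA libraries was COL9A3, a chain of the fibril-associated type IX collagen, at r = 0.98, and then MSH3 and SPRY1 at 0.97 each. Over the 6 drug libraries the same pairs stood at 0.76, -0.56 and 0.81. For COL6A2 the likest were H19 (0.96), CSPG4 (0.95) and COL9A3 (0.95), and over the drug libraries these stood at -0.47, 0.69 and -0.22. For DCN they were MRPS15 (0.97), COQ2 (0.97) and TSPAN33 (0.95), and over the drug libraries -0.88, -0.65 and -0.93. With 0 to 14 counts of DCN in a drug library, the latter values rest on few counts. For COL3A1, CNTLN, USP9X and ANKRD1 stood at 0.94, 0.94 and 0.93 over the siRNA libraries. Over the drug libraries the 3 stood at 0.29, 0.96 and 0.77. Each r over the siRNA libraries was picked as among the highest of 10861 genes, so it is high by selection.

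The counts in the gene lists that follow stand beside 27.2% of all genes called in siMondoA and 8.41% in siMLX. Among the other collagen chains, 14 of 37 listed could be tested in the siRNA libraries, and in siMondoA 1 was higher and 5 were lower, with a median log2 fold change of -0.24. The one that was higher was COL5A3, the α3(V) chain, at 117 ± 60.5 CPM in siMondoA, 59.8 ± 15.8 CPM in siMLX and 13.9 ± 2.72 CPM in siControl (SD, n = 3 each). Its level was 8.36-fold higher after siMondoA, 3.06 ± 0.35 on the log2 scale (edgeR adjusted p = 0.000538), and 4.28-fold higher in siMLX (edgeR adjusted p = 0.00701). Per length, COL5A3 stood at 17.3 CPM per kb in siMondoA and 8.86 CPM per kb in siMLX, above COL5A2 at 0.330 and 0.586 CPM per kb in the same groups. COL9A3 (-1.08 ± 0.17), COL4A5 (-0.66 ± 0.11) and COL17A1 (-1.78 ± 0.33), the last a hemidesmosome collagen, were lower in siMondoA. In siMLX 2 of the 14 were called, COL5A3 and COL12A1 (0.70 ± 0.14), both higher, with a median of 0.14. The list had 1 call without siMLX replicate 3, siControl replicate 1 or siControl replicate 2, and 4 calls with the replicate block.

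Genes that fold, process and crosslink collagen were called in siMondoA 6 times higher and 3 times lower of 30 tested, with a median log2 fold change of 0.09. The lysyl hydroxylases PLOD3 (0.64 ± 0.11) and PLOD1 (0.55 ± 0.11), the lysyl oxidase relative LOXL2 (0.82 ± 0.18) and the prolyl hydroxylase subunit P4HA2 (0.50 ± 0.11) were higher. The list had 9 calls of 30, near the 27.2% of all genes, and 5 without siControl replicate 1 or siControl replicate 2. In siMLX 3 were higher, among them P4HA2 (0.54 ± 0.11) and the lysyl oxidase LOX (0.75 ± 0.16), and 1 was lower, with a median of -0.11. The list had 2 calls without siMLX replicate 2, 1 without siMLX replicate 3 and 0 without any one siControl library.

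Basement membrane genes were called higher in siMondoA in 5 of 13 cases and lower in none, with a median of 0.41. The examples are NID2 (2.33 ± 0.27), a nidogen, and LAMA3 (0.97 ± 0.18), a laminin chain. The list had 3 calls without any one siControl library. In siMLX 3 of the 13 were lower and none was higher, with LAMA4 at -1.12 ± 0.16 and a median of -0.23, and the list had 1 call without siMLX replicate 1, siMLX replicate 3 or any one siControl library. Of 20 other genes of the interstitial matrix, 5 were higher and 2 lower in siMondoA at a median of -0.38, with TNC (tenascin C) at 1.76 ± 0.15 and VTN (vitronectin) at 2.27 ± 0.38 higher and FBN2 (fibrillin-2) at -4.07 ± 0.73 lower. TNC was also higher in siMLX (1.21 ± 0.14), where 2 of the 20 were higher and 1 was lower at a median of -0.08, and the list had 1 call without siControl replicate 1.

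Matrix proteases and their inhibitors gave 7 higher and 2 lower calls of 15 in siMondoA, with a median of 0.54. TIMP1 (0.94 ± 0.20) and TIMP4 (1.63 ± 0.29) were higher and TIMP2 (-1.63 ± 0.14) was lower, all inhibitors of matrix metalloproteinases. The list had 9 calls, and 5 without siMondoA replicate 2 or siControl replicate 1, and 4 without siMondoA replicate 3 or siControl replicate 2. In siMLX 1 was higher, TIMP1 (1.07 ± 0.20), and 2 were lower, with the gelatinase MMP2 at -1.29 ± 0.14 and a median of -0.36, and the list had 1 call without siControl replicate 1 or siControl replicate 2 and 5 with the replicate block. Of 12 collagen and fibronectin receptors, 2 were higher and 2 lower in siMondoA, again near the share over all genes, at a median of -0.22, where ITGA5, the fibronectin receptor chain, stood at 1.25 ± 0.21 and ITGA10, a collagen-binding integrin chain, at -3.24 ± 0.28. In siMLX 2 were lower, ITGA10 (-2.38 ± 0.26) and ITGB5 (-0.63 ± 0.12), at a median of -0.41, and the list had 5 calls without siMLX replicate 2, 1 without siMLX replicate 3 or siControl replicate 1 and 5 with the replicate block.

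Regulators of collagen gene transcription gave 8 higher and 3 lower calls of 27 in siMondoA, with a median of 0.09. TGFBR2, a receptor for TGF-β, was lower (-0.94 ± 0.12), and the transcription factors CEBPB (1.51 ± 0.22), SNAI2 (2.49 ± 0.45) and EGR1 (2.84 ± 0.53) were higher. The list had 11 calls, and 5 without siMondoA replicate 3, 6 without siControl replicate 1 and 7 without siControl replicate 2 or siControl replicate 3. In siMLX 2 were higher, SNAI1 (0.77 ± 0.18) and CEBPB (0.79 ± 0.21), at a median of 0.15, and none was called without siMLX replicate 2 or any one siControl library. Of the marker lists, fibroblast and stellate cell genes gave 1 higher and 2 lower calls of 10 in siMondoA and 2 lower calls in siMLX, with PDGFRB at -1.93 ± 0.24 and -1.20 ± 0.23 and medians of 0.26 and -0.08. S100A4 was at -1.12 ± 0.27 and -1.17 ± 0.27, and NT5E at 0.99 ± 0.31 in siMondoA. Epithelial genes gave 2 higher and 2 lower calls of 9 in siMondoA and 1 higher and 1 lower in siMLX, with medians of -0.40 and -0.27. In siMondoA CDH1 (2.38 ± 0.37) and KRT17 (2.65 ± 0.84) were higher, and CLDN4 (-1.31 ± 0.34) and MUC1 (-0.67 ± 0.22) were lower. In siMLX KRT17 (3.41 ± 0.78) was higher and CLDN4 (-1.64 ± 0.35) was lower. KRT17 had at most 30 counts in a library. For both lists in siMondoA the calls numbered 6 without siMondoA replicate 1 and 1 or 2 without any other of the 6 libraries. In siMLX both lists had none called without siMLX replicate 3 or siControl replicate 1, the epithelial list also none without siControl replicate 2, and 1 was called in the fibroblast list without siMLX replicate 2 or siControl replicate 2 and in the epithelial list without siMLX replicate 2 or siControl replicate 3. With the replicate block the epithelial list had 4 calls in siMLX. The part of these markers in the collagen values was not tested.

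With SBI477 none of the genes in these lists was called with all libraries as labelled. With replicates 1 and 3 alone, 1 other collagen chain was higher and 7 were lower of 17 tested, where 18.1% of all genes were called and 9.02% were lower, at a median of -0.31 against -0.01 over all genes, with COL27A1 (-1.07 ± 0.16) and COL9A3 (-1.46 ± 0.25) lower and COL17A1 (0.62 ± 0.15) higher. Other interstitial matrix genes gave 4 higher and 4 lower calls of 21 at a median of 0.19, with CTGF (-1.57 ± 0.14) and TGFBI (-1.01 ± 0.13), genes that answer to TGF-β, lower and LTBP1 (0.91 ± 0.15) and SPP1 (1.78 ± 0.30), osteopontin, higher. Proteases and inhibitors gave 3 higher and 2 lower calls of 16, with the collagenase genes MMP14 (1.72 ± 0.21) and MMP1 (1.15 ± 0.18) higher. Regulators of collagen transcription gave 1 higher and 4 lower calls of 26, with TGFB2 at -0.58 ± 0.09, and folding and crosslinking genes 4 higher and 6 lower of 30, with PLOD2 at -0.44 ± 0.10. Receptors gave 1 higher and 2 lower calls of 13, and basement membrane genes 2 higher and 1 lower of 13. In the same 4 libraries the fibroblast and stellate markers gave 2 higher and 2 lower calls of 11 at a median of -0.72, with PDGFRA (0.67 ± 0.12) higher and POSTN (-1.21 ± 0.24), periostin, lower. The epithelial markers gave 4 lower calls of 8 and none higher at a median of -0.47, with KRT18 (-0.62 ± 0.09) and KRT8 (-0.56 ± 0.08) lower, and the part of either marker list in the collagen values was not tested.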

How the data were processed

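PSN-1 cells were grown in RPMI with serum and RNA was sequenced as paired reads of 25 bases, per the labels' protocols. HTSeq 0.6.1, TopHat2 2.1.0, bcl2fastq 1.8.4 and edgeR are named in the submitters' processing notes, with hg38 and mm10 as builds; strand and poly(A) selection are not given in the sources used here. The authors deposited 1 table per experiment with raw counts for 26485 gene symbols, per the file headers. The authors' deposited log2 fold changes and their p-value and adjusted p-value columns stand in the same tables, per the file headers.

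The main tests used edgeR 4.0.16 (limma 3.58.1, R 4.3.3; filterByExpr, TMM scaling, quasi-likelihood test, Benjamini-Hochberg threshold 0.05), with the 9 siRNA libraries in 1 fit, the 6 drug libraries in another, and all 15 for the interaction, without a replicate term. COL5A1 passed the filter in no fit and DCN not in the drug fit. CPM use TMM factors, log2 CPM a prior count of 2, and lengths and positions GENCODE v29 (GRCh38). Ratios carry exact binomial 95% intervals. Alternatives were DESeq2 1.42.0, RLE scaling, no filter, a replicate term, fewer libraries and drug replicates 1 and 3; the scripts were tested on simulated data. Plots used matplotlib 3.10.9 (Python 3.11.15). No column belonged to another study.

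The members and the gene lists were chosen with earlier results of these data known. The lists hold other collagen chains, collagen folding and crosslinking genes, interstitial and basement membrane genes, proteases, receptors, regulators, and fibroblast and epithelial markers. Named are all 10 members and, per list and comparison, genes from the up to 4 with the smallest adjusted p, the 5 highest collagens by level, and the 3 genes likest to a member by Pearson's r. COL6A3, ESRP1, EPCAM, TXNIP and the marker genes given by level were named after their values were seen. Same-numbered siMLX and siControl libraries deviated together (correlations of 0.19 to 0.36, each over 0.1), which hints at pairs from the data and not from the labels. The block on the siMLX lists was added after the data were seen. Replicates were distinct libraries, with a lowest chi-square per degree of freedom of 8.37 between 2 replicates.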

Additional observations from a re-analysis of the deposited data

Results flagged for a closer look

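SPARC differed between the knockdowns, at a log2 fold change of -2.08 in siMondoA against siMLX, with all 3 siMondoA libraries below all siMLX libraries. COL6A2 differed in the same direction, at -1.50, on 10 to 13 counts in a siMondoA library and 24 to 42 in a siMLX library. The drug and the knockdown differed for SPARC, with 1.45 as the SBI477 effect minus the siMondoA effect. Each was flagged because the test of the difference itself passed an adjusted p of 0.05.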

How the results depend on the processing

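Of 366 alternative values for the 6 tested members, 347 kept their direction and their side of the threshold, 7 lost a call, 4 gained one and 8 changed sign, none of them called before or after. The sign changes were COL3A1 in SBI477 against DMSO (0.57 without DMSO replicate 3 and 0.04 without SBI477 replicate 3; range -0.81 to 0.57 over single libraries left out), SPARC there (-0.24 to 0.09) and FN1 there (-0.04 to 0.69), COL6A1 in siMLX against siControl (0 to 0.08), and, in the SBI477 effect minus the siMondoA effect, COL3A1 (-1.33 to 0.04) and COL6A1 (0.05 with drug replicates 1 and 3). COL6A2 in siMondoA against siMLX was also lost in a fit of only the 6 libraries (edgeR adjusted p = 0.0506).

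Over all genes, siMondoA against siControl gave 3532 calls, and 1745 to 3884 without single libraries. siMLX against siControl gave 1094, with 1815 under the replicate block, 1651 by DESeq2 and 254 to 833 without single libraries. siMondoA against siMLX gave 1673, with 2606 under the replicate block, 706 from only the 6 libraries and 670 to 2970 without single libraries. SBI477 against DMSO gave 0, also without any single library, and 2575 with replicates 1 and 3. The SBI477 effect minus the siMondoA effect gave 1049, with 1781 by DESeq2, 1595 with drug replicates 1 and 3 and 423 to 1680 without single libraries. The cause of these shifts was not tested.

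Same-numbered libraries deviated together in siMLX and siControl, but not throughout in siMondoA and siControl (correlations of 0.01 to 0.14), siMondoA and siMLX (-0.11 to 0.53) or the drug experiment (-0.56 to -0.24), where the numbers are not taken as pairs. The authors' deposited log2 fold changes for siMondoA and siMLX were matched by DESeq2 with a replicate term. The median absolute differences were 1.74e-07 and 1.53e-07. With the replicate block COL6A2 in siMondoA against siControl passed (edgeR adjusted p = 0.0410), siMondoA against siControl gave 4551 calls, and no other call of the 6 members changed. Depth limits COL5A1, COL6A2, DCN in the drug libraries and COL1A2 in siMondoA.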
